A study of Mus musculus with 6 samples.

Results

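The SLC25 family comprises nuclear-encoded carrier proteins that move metabolites, nucleotides, cofactors and ions, mainly across the inner mitochondrial membrane. Its genes were chosen by name from the deposited read count table, as every gene whose symbol starts with Slc25a plus *Ucp2*, *Mtch1* and *Mtch2*, which belong to the family under other names. *Slc25a1*, the citrate carrier gene, and *Slc25a20*, the gene of the carnitine-acylcarnitine carrier, were set aside and serve as comparators. Among 24445 genes with a row in the table, 48 had such a name, 37 of them had at least 10 counts in all 6 libraries and were analysed, and 11 did not.

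The libraries were made from RNA of bone marrow-derived macrophages (BMDMs), which were differentiated in culture for 7 days and then treated with 100 U/mL of interleukin-4 (IL-4) for 24 h. Ctrl cells (3 libraries) came from *Acly* fl/fl mice, in which loxP sites flank exon 9 of the ATP citrate lyase gene, and AclyM-KO cells (3 libraries) came from mice that carry the same alleles together with *Lyz2*-Cre, which is active in myeloid cells. The floxed mice were C57Bl/6J, the donors were female per the series' design text, and their age is not given in the sources used here. The replicates are called biological in the study's statistics section but technical, from 3 pooled mice, in a figure legend, so p-values measure the spread between these libraries, which may be technical. Summed over the row kept for each gene, the Ctrl libraries held 14739689, 12151975 and 13074469 counts and the AclyM-KO libraries 14787741, 15587283 and 14745614 counts. A chi-square comparison of libraries within a group gave 2.32 to 7.55 per gene, above the level of about 1 that sampling alone would give, and no library was counted as a repeat of another.

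Mitochondrial carriers share a fold built from repeated membrane-spanning modules, and most exchange one substrate for another in a strict or loose antiport. They link the citric acid cycle and oxidative phosphorylation inside the organelle with cytosolic pathways such as nucleotide, amino acid and lipid synthesis. In macrophages, the export of citrate by the *Slc25a1* product feeds ATP citrate lyase, which splits it into acetyl-CoA and oxaloacetate. The comparison of AclyM-KO with Ctrl asks how the mRNA of the other carriers stood when the gene of this cytosolic enzyme was deleted.

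*Acly* itself, on the minus strand of chromosome 11 (GRCm38, chr11:100476353-100528000), is the deleted gene and checks the genotype labels. In CPM, which are counts scaled to the size of the library with edgeR's TMM factors, it measured 332, 321 and 350 in Ctrl and 146, 134 and 136 in AclyM-KO. Levels in AclyM-KO thus averaged 41.4% of those in Ctrl, with no overlap. The log2 fold change, positive where AclyM-KO is higher, was -1.27 with a standard error (SE) of 0.0533 and an edgeR adjusted p of 5.22e-10. The counts cover the whole transcript and do not separate transcripts that lack exon 9 from undeleted ones. In RNA from whole cultures, fewer cells of a type and less RNA per cell cannot be told apart.

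The macrophage label was checked with 8 marker genes, all of which were abundant enough to test. *Lyz2*, whose control elements drive the Cre, was the most abundant and lay between 4004 and 7121 CPM in the 6 libraries. It fell by 0.67 on the log2 scale (edgeR adjusted p = 5.79e-08). Only AclyM-KO carries *Lyz2*-Cre, so the Cre allele and the loss of *Acly* cannot be told apart in any comparison here. *Mertk* (-0.73), *Itgam* (-0.28) and *Csf1r* (-0.20) were also lower and *Adgre1* (0.33) was higher, each at an adjusted p of 0.00366 or less by edgeR. Of 10 neutrophil markers, 4 were abundant enough to test and 2 were higher in AclyM-KO, *S100a8* (2.95 ± 0.245 to 5.33 ± 0.235 CPM, SD, n = 3; edgeR adjusted p = 0.00257) and *S100a9* (5.61 ± 1.30 to 8.44 ± 0.0687 CPM, SD, n = 3; edgeR adjusted p = 0.0152). The summed level of the 10 was 17.1 to 19.3 CPM in the Ctrl libraries and 24.9 to 26.7 CPM in the AclyM-KO libraries, the defining gene *Ly6g* was among the 6 not tested (at most 12 counts), none was at 0 in all libraries, and the most abundant, *S100a9*, did not exceed 8.50 CPM. Of 10 erythroid markers, 7 were at 0 in every library, among them the globin genes, and the list summed to 0.643 to 1.84 CPM, led by *Epor*. Summed levels were at most 4.09 CPM for 6 dendritic cell markers (*Zbtb46* leading, *Xcr1* and *Siglech* among the 5 not tested), 1.22 CPM for 8 lymphocyte markers (*Cd79a* leading, *Ncr1* at 0) and 1.30 CPM for 5 fibroblast markers (*Col1a2* leading). Of all genes tested, 24.9% passed an edgeR adjusted p of 0.05, and the marker lists are too small to set against that share. The part of the marker shifts in the carrier results was not tested.

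The carriers differed far more from one another than between genotypes. Divided by transcript length in kilobases (GENCODE M21), the highest level in Ctrl was that of *Slc25a3*, the mitochondrial phosphate carrier gene, at 210 ± 15.2 CPM per kb (SD, n = 3). *Ucp2*, the gene of uncoupling protein 2, followed at 160 ± 6.74 CPM per kb, and *Slc25a5* and *Slc25a4*, which encode ADP/ATP carriers, at 94.5 ± 8.70 and 60.8 ± 2.70 CPM per kb. *Slc25a39*, a gene needed for glutathione uptake into mitochondria, stood at 58.2 ± 3.61 CPM per kb and could not be placed apart from *Slc25a4* or from *Mtch1* (56.7 ± 2.69 CPM per kb) within the spread of the libraries. In AclyM-KO these levels were 238, 165, 103, 65.4 and 57.8 CPM per kb, and *Mtch1*, at 61.9 CPM per kb, lay above *Slc25a39*. At the other end of the order, *Slc25a42*, a carrier gene for coenzyme A and adenine nucleotides, had 0.856 CPM per kb in Ctrl, below *Slc25a53* (1.33), *Slc25a35* (1.36) and *Slc25a33* (1.73). These levels rest on transcript length, most of all for *Ucp2*, *Slc25a12* and *Slc25a4*, whose GENCODE transcripts have 3988, 6351 and 1925 bases, of which 1597, 3144 and 1332 lie inside the RefSeq gene. With the shorter lengths, a choice made after the values were seen, *Ucp2* ranked 1 at 398 CPM per kb and *Slc25a3* ranked 2 at 212 CPM per kb. *Slc25a12* then moved from 6.22 to 12.6 CPM per kb, and *Slc25a4* stood at 87.8 CPM per kb, well above *Slc25a39*.

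**Figure D1:**
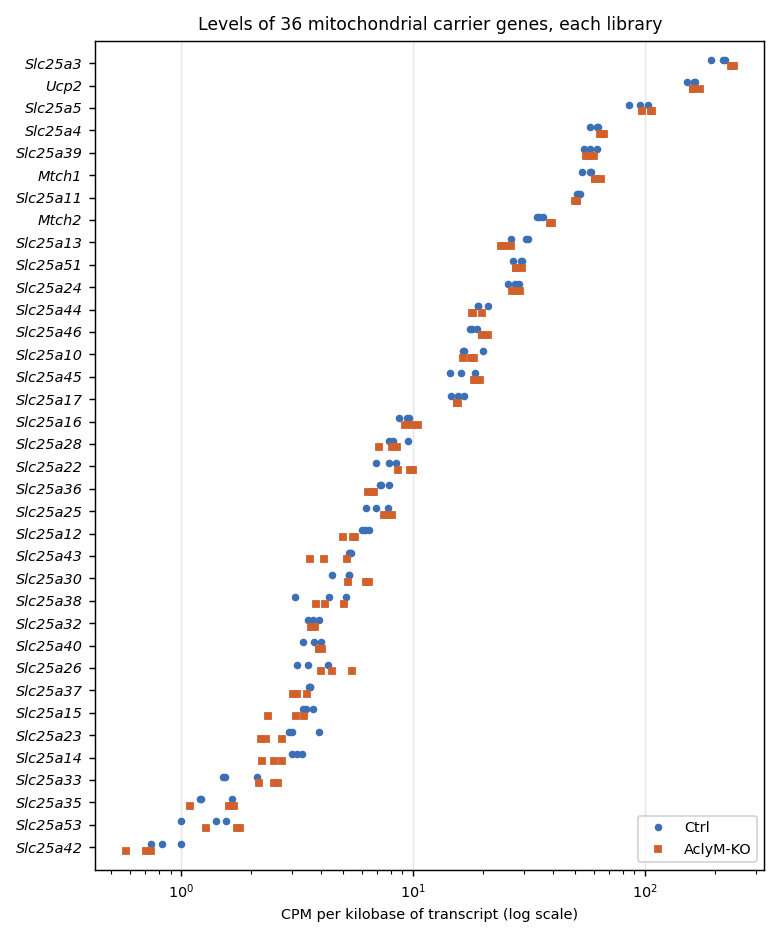
Level of 36 of the 37 carrier genes in every library, in CPM per kilobase of transcript on a log scale; circles are the 3 Ctrl libraries and squares the 3 AclyM-KO libraries. The genes span 0.856 (*Slc25a42*) to 210 (*Slc25a3*) CPM per kb in Ctrl, and for nearly all of them the circles and squares lie close together.

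Without division by length, the 37 genes summed to 2507, 2376 and 2532 CPM in the Ctrl libraries and to 2548, 2535 and 2633 CPM in the AclyM-KO libraries. Every AclyM-KO sum was above every Ctrl sum, but the closest were 2535 CPM (AclyM-KO) and 2532 CPM (Ctrl). That is too near to read as a higher family total. The order rests on the TMM factors and was not taken with library totals alone. Of single genes tested, 20.5% also had AclyM-KO wholly above Ctrl. *Ucp2* and *Slc25a3* together made up 38.6% to 41.1% of the sum in each library.

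The share of carriers that changed between genotypes was below that of all genes, a difference that was not tested. Of the 37 carriers, 7 (18.9%) passed an edgeR adjusted p of 0.05 in the quasi-likelihood test, 4 higher and 3 lower in AclyM-KO, while 24.9% of all 12023 genes tested passed the same limit (12.4% higher, 12.6% lower). None of the 37 also moved by over 0.58 on the log2 scale, the limit that 5.55% of all genes tested passed (2.98% higher, 2.57% lower). DESeq2 called 0 beyond that limit as well, and 12 carriers (32.4%) had an unadjusted p under 0.05 in edgeR, against 36.7% of all genes. With library totals as the only scaling, 3 were higher and 4 lower, because *Slc25a46* no longer passed and *Slc25a36* did (edgeR adjusted p = 0.0434). The counts over all genes shifted the same way, from 1485 higher and 1511 lower to 1283 higher and 1710 lower. The exchange is therefore not particular to the carriers. The call depended on single libraries: without AclyM-KO replicate 1 none of the 37 passed, without AclyM-KO replicate 2 only 2 did and without AclyM-KO replicate 3 only 3 did, with edgeR in each case. In those fits 16.9%, 16.3% and 18.3% of all genes passed. DESeq2 gave 2 carriers under an adjusted p of 0.05, *Slc25a13* and *Slc25a3*, beside 2269 of the 12361 genes it gave an adjusted p (18.4%). Among the 12023 genes tested with edgeR it called 2266 (18.8%).

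The sizes were read against those of all genes. The median log2 fold change over the 37 carriers was 0.04, with 20 above 0 and 17 below, and its counterpart over all genes tested was 0.0014. The median absolute log2 fold change was 0.155 for the carriers and 0.152 for all genes. Beyond 0.3 lay 16.2% of the carriers and 24.4% of all genes, and beyond 0.58 lay 0 of the carriers and 7.84% of all genes. As each carrier had to have at least 10 counts in every library, the shares were also taken over the 11409 tested genes that met this minimum, a choice made after the values were seen. Of these, 22.2% lay beyond 0.3 and 6.05% beyond 0.58, 25.4% passed the adjusted p of edgeR, and the median absolute log2 fold change was 0.146. The difference of the carriers from either background was not tested. For 29 of the 37 carriers (78.4%) the whole 95% interval of the log2 fold change lay within 0.58 of 0, as it did for 72.6% of all genes. The estimates were sharper for abundant members. The 22 carriers with at least 20 CPM in Ctrl had a median standard error of 0.0623 and a median absolute change of 0.11 on the log2 scale, and the 15 below 20 CPM had 0.157 and 0.25.

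**Figure D2:**
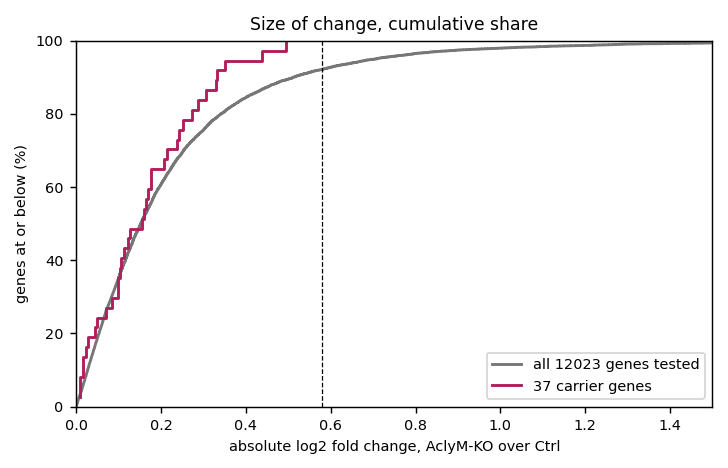
Cumulative share of genes (percent) against the absolute log2 fold change between AclyM-KO and Ctrl; the stepped line shows the 37 carrier genes, the smooth line all 12023 genes tested, and the dashed line the limit of 0.58. The medians are 0.155 and 0.152, and 0 of the carriers and 7.84% of all genes lie beyond 0.58.

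In 15 carriers (40.5%) the libraries of the 2 groups did not overlap, 7 with AclyM-KO above and 8 below, while 40.2% of all genes tested had groups that did not overlap (20.5% above and 19.8% below). For each of these 15 an exact two-sided permutation test gave p = 0.10, the smallest that 3 against 3 libraries allow. All 7 carriers that passed the edgeR test were among them.

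**Figure D3:**
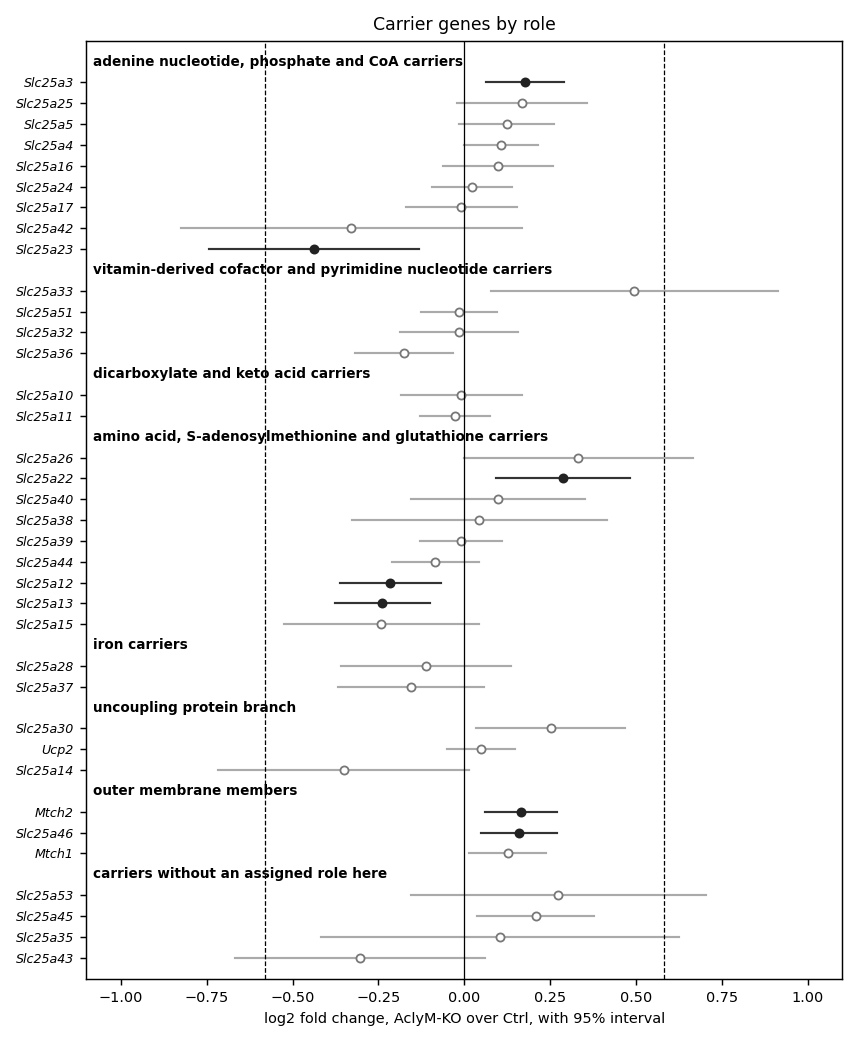
Log2 fold change of 36 of the 37 carrier genes (AclyM-KO over Ctrl) with its 95% interval from edgeR, grouped by role; filled points passed an adjusted p of 0.05, and the dashed lines mark 0.58 in either direction. The estimates lie between -0.44 (*Slc25a23*) and 0.49 (*Slc25a33*), inside the dashed lines.

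Among the amino acid carriers, 3 of 9 (33.3%) passed the adjusted p of edgeR, against 24.9% of all genes, and the difference was not tested. Of 13 listed genes for amino acids, S-adenosylmethionine and glutathione, 9 were abundant enough, 1 rose, 2 fell and 6 did not pass, with a median log2 fold change of -0.01. The 2 that fell are the aspartate-glutamate carriers, *Slc25a13* (citrin) and *Slc25a12* (aralar), which export aspartate in exchange for glutamate and are a step of the malate-aspartate shuttle. *Slc25a13* lies on the minus strand of chromosome 6 (chr6:6041218-6217173) and *Slc25a12* on the minus strand of chromosome 2 (chr2:71271063-71367749). The sequences below are the 250 bases before the RefSeq start of each gene (GRCm38.p6, minus strand, 5′ to 3′), shown because both carriers of the pair fell; capitals mark the E-box CACGTG. It was the only one of 5 searched motifs found in the *Slc25a13* window, and none was found in that of *Slc25a12*.
Slc25a13 (chr6:6217174-6217423): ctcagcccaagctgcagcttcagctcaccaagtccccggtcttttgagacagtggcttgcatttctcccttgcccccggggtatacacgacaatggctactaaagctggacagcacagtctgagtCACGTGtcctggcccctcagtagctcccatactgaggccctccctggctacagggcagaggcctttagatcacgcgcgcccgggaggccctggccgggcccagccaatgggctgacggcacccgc
Slc25a12 (chr2:71367756-71368005): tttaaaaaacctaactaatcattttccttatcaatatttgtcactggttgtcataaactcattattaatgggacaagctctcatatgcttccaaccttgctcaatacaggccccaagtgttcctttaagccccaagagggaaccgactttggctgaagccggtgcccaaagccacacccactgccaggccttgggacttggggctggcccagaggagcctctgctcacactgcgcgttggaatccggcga

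*Slc25a13* measured 82.8, 96.1 and 98.0 CPM in Ctrl and 77.3, 82.1 and 74.9 CPM in AclyM-KO. The highest AclyM-KO library lay just under the lowest Ctrl library, and the Ctrl values were the more scattered. The means were 92.3 ± 8.30 and 78.1 ± 3.66 CPM (SD, n = 3), a log2 fold change of -0.24 ± 0.0646 (SE; adjusted p = 0.0137 by edgeR), and the call was lost without Ctrl replicate 3, AclyM-KO replicate 1 or AclyM-KO replicate 3. *Slc25a12* measured 38.1, 39.5 and 41.0 CPM in Ctrl and 31.6, 34.9 and 35.6 CPM in AclyM-KO, which left a gap between the groups. Its log2 fold change was -0.22 ± 0.0697 (SE; adjusted p = 0.0346 by edgeR), and the call was lost without Ctrl replicate 3, AclyM-KO replicate 1 or AclyM-KO replicate 2, with DESeq2 (adjusted p = 0.0905) and with the sum of all transcript rows (edgeR adjusted p = 0.0548). As *Slc25a12* has 1 row, its own counts were the same in that sum, and the log2 fold change stayed at -0.22. Per kilobase, *Slc25a13* stood 4.745 ± 0.285 times as high as *Slc25a12* in Ctrl and 4.68 ± 0.364 times in AclyM-KO (SD, n = 3; exact two-sided permutation test, p = 0.70, adjusted p over 6 pairs 0.90), and the ratios of the groups overlapped. With the bases inside the RefSeq gene as length, the ratio was 2.35 ± 0.141 in Ctrl and 2.32 ± 0.180 in AclyM-KO, so its level depends on the length used, while its comparison between groups does not.

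*Slc25a22*, a mitochondrial glutamate carrier gene on chromosome 7 (chr7:141429744-141437892, minus strand), was the amino acid carrier that rose. It measured 19.5, 22.2 and 23.8 CPM in Ctrl and 27.4, 24.2 and 28.1 CPM in AclyM-KO. The groups were parted by a narrow margin, set by Ctrl replicate 3 and AclyM-KO replicate 2. The log2 fold change was 0.29 ± 0.0920 (SE; adjusted p = 0.0328 by edgeR), and the call was lost without Ctrl replicate 1, AclyM-KO replicate 1 or AclyM-KO replicate 3, and with DESeq2 (adjusted p = 0.0778). Its paralogue *Slc25a18* was under the count minimum, with at most 25 counts. The other amino acid carriers did not pass: *Slc25a26*, the S-adenosylmethionine carrier gene, had the highest estimate among them (0.33, 95% interval -0.003 to 0.67), and the ornithine carrier gene *Slc25a15* had -0.24 (edgeR adjusted p = 0.204). With single libraries left out, *Slc25a26* ranged from 0.20 (without AclyM-KO replicate 1) to 0.47 and *Slc25a15* from -0.35 to -0.11 (without AclyM-KO replicate 3). *Slc25a39* and *Slc25a40*, a paralogous pair tied to glutathione import, had log2 fold changes of -0.01 and 0.10, and their ratio per kilobase was 15.8 ± 2.26 in Ctrl and 14.6 ± 0.414 in AclyM-KO (SD, n = 3; exact two-sided permutation test, p = 0.60). *Slc25a44*, a carrier gene for branched-chain amino acids, had -0.08, and *Slc25a38*, a glycine carrier gene needed for haem synthesis, had 0.04.

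Of the carriers of adenine nucleotides, phosphate and coenzyme A, 2 of 9 (22.2%) passed, in opposite directions, a share near the 24.9% of all genes. Of 12 listed genes 9 were abundant enough, 1 rose, 1 fell and 7 did not pass, with a median log2 fold change of 0.10 and 6 values above 0. The gene that rose was *Slc25a3*, on the minus strand of chromosome 10 (chr10:91116574-91124059), whose product imports the phosphate used to make ATP. The gene that fell was *Slc25a23*, on the minus strand of chromosome 17 (chr17:57043711-57059863), which encodes a calcium-regulated carrier exchanging ATP-Mg for phosphate. The outer membrane group, described next, held 2 more increases. Bases before the start are shown for *Slc25a3* and for *Mtch2* of that group (RefSeq, GRCm38.p6, each on the gene's own strand, 5′ to 3′), because they were the only carriers among the 29 with a RefSeq promoter entry whose windows held both an ETS-type motif (CCGGAAG) and an NRF1-type motif (GCGCA, any base, then GCGC) on either strand. Capitals mark these matches, and for *Slc25a3* the 158 bases before the GENCODE start are shown, as the other 92 lie in an annotated 5′ UTR.
Slc25a3 (chr10:91124060-91124217): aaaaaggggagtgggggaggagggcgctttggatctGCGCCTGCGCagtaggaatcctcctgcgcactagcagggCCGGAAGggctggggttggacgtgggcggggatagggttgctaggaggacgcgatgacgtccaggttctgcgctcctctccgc
Mtch2 (chr2:90846905-90847154): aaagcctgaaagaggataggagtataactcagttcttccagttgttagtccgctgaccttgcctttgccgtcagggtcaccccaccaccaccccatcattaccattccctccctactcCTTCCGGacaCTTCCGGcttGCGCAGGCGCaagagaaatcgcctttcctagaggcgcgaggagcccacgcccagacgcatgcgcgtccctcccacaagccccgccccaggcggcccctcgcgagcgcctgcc

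*Slc25a3* measured 348, 311 and 357 CPM in Ctrl and 377, 382 and 390 CPM in AclyM-KO. The AclyM-KO libraries lay close together above all Ctrl libraries, of which replicate 2 was the lowest. The log2 fold change was 0.18 ± 0.0532 (SE; adjusted p = 0.0236 by edgeR), and it lay between 0.11 (without Ctrl replicate 2) and 0.21 when single libraries were left out, where the call was lost without any one of the AclyM-KO libraries. *Slc25a23* measured 10.1, 13.2 and 9.79 CPM in Ctrl and 7.78, 7.40 and 9.11 CPM in AclyM-KO. It rested on 114 to 161 counts per library, and Ctrl replicate 2 stood above the rest. The log2 fold change was -0.44 ± 0.144 (SE; adjusted p = 0.0368 by edgeR), the largest in size among the 7. The call was lost without Ctrl replicate 2, AclyM-KO replicate 1 or AclyM-KO replicate 2, and with DESeq2 (adjusted p = 0.0705). It was also lost with the replicate number as a block (edgeR adjusted p = 0.0501) and with the sum of all transcript rows (edgeR adjusted p = 0.0557). As *Slc25a23* has 1 row, its own counts were the same in that sum, and its log2 fold change stayed at -0.44. Exons of *Gm17168* on the other strand cover 4.22% of its exonic bases, and the use of strand in the counting is not given in the sources used here. Such overlap was also found for other members, among them *Slc25a25* (11.6%), *Slc25a10* (11.3%), *Slc25a37* (9.13%) and *Slc25a26* (7.49%).

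The neighbouring genes of the ATP-Mg/phosphate group had other values. *Slc25a25* had a log2 fold change of 0.17 (edgeR adjusted p = 0.185) and *Slc25a24* one of 0.02 with a 95% interval of -0.09 to 0.14, while *Slc25a41*, which lies 2056 bases from *Slc25a23*, had 0 counts in all 6 libraries. The ADP/ATP carriers, which exchange the nucleotides across the inner membrane, were among the most abundant members and did not pass. *Slc25a4* measured 119, 111 and 121 CPM in Ctrl and 128, 124 and 126 CPM in AclyM-KO, which did not overlap but did not pass (log2 fold change 0.11, edgeR adjusted p = 0.144). *Slc25a5* measured 128, 106 and 118 CPM in Ctrl and 132, 120 and 131 CPM in AclyM-KO, with overlap (0.12, edgeR adjusted p = 0.187, or 0.0482 without Ctrl replicate 1). The *Slc25a4* to *Slc25a5* ratio per kilobase was 0.645 ± 0.0380 in Ctrl and 0.636 ± 0.0258 in AclyM-KO (SD, n = 3; exact two-sided permutation test, p = 0.90), or 0.932 and 0.918 with the bases inside the RefSeq gene as length. A transcribed processed pseudogene, *Slc25a5-ps*, is annotated, and reads shared with such copies may make the level of *Slc25a5* uncertain, which was not tested. Among the coenzyme A carriers, *Slc25a16* had 0.10 and the low *Slc25a42* -0.33 (95% interval -0.82 to 0.17), and *Slc25a17*, which works in peroxisomes, had -0.01.

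The 3 outer membrane members had AclyM-KO libraries wholly above Ctrl, as 20.5% of all genes did, and 2 of them (66.7%) passed, against 24.9% of all genes. These 3 are too few genes to set against all genes, and the difference was not tested. These proteins have the carrier fold but sit in the outer membrane, where MTCH1 and MTCH2 act in protein insertion and SLC25A46 in mitochondrial dynamics. *Mtch2*, on the plus strand of chromosome 2 (chr2:90847155-90866810), measured 88.4, 90.2 and 94.4 CPM in Ctrl and 102, 103 and 101 CPM in AclyM-KO. The groups were clearly parted, with little scatter in AclyM-KO. Its log2 fold change was 0.16 ± 0.0492 (SE; adjusted p = 0.0232 by edgeR), and the call was lost without Ctrl replicate 1 or any one AclyM-KO library, and with DESeq2 (adjusted p = 0.0572). *Slc25a46* measured 78.4, 76.7 and 82.2 CPM in Ctrl and 86.7, 86.7 and 91.7 CPM in AclyM-KO, also without overlap. Its log2 fold change was 0.16 ± 0.0516 (SE; adjusted p = 0.0346 by edgeR), but the call was lost with DESeq2 (adjusted p = 0.0950), without a filter on low counts, with library totals, with the sum of all transcript rows and in every fit without 1 library except that without Ctrl replicate 3. As *Slc25a46* has 1 row, its own counts were the same in that sum, and its log2 fold change stayed at 0.16. Exons of *B930094E09Rik* on the other strand cover 8.56% of its exonic bases. *Mtch1* measured 113, 105 and 114 CPM in Ctrl and 118, 118 and 126 CPM in AclyM-KO and did not pass (0.13, edgeR adjusted p = 0.0950). The group summed to 280, 272 and 291 CPM in Ctrl and 307, 308 and 318 CPM in AclyM-KO, and the *Mtch1* to *Mtch2* ratio per kilobase was 1.62 ± 0.0827 and 1.575 ± 0.0754 (SD, n = 3; exact two-sided permutation test, p = 0.60).

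**Figure D4:**
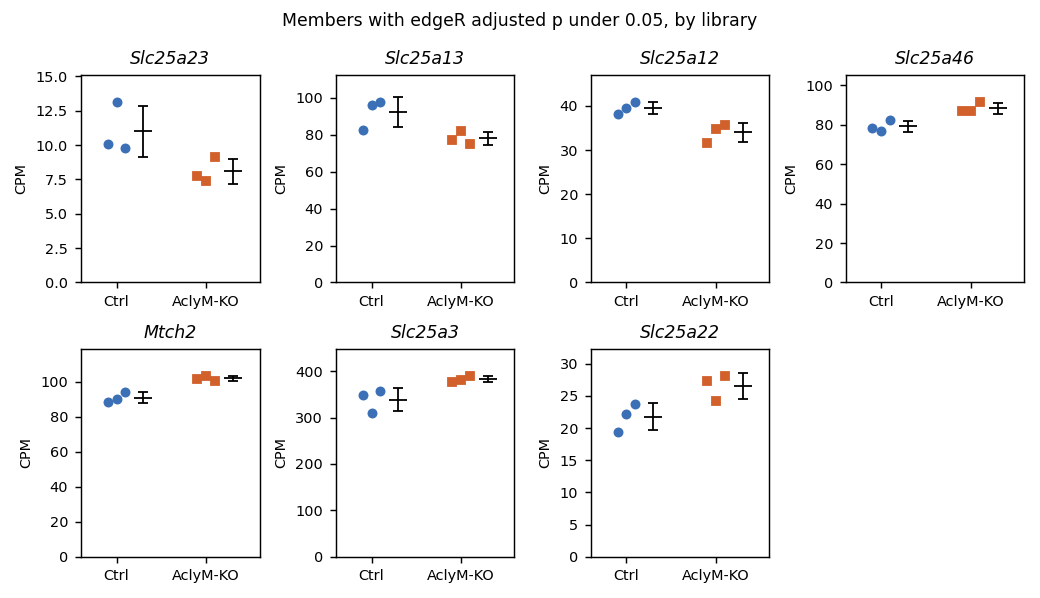
CPM of the 7 carrier genes with an edgeR adjusted p under 0.05, 1 panel per gene, with axes that start at 0; points are single libraries, and the bars beside them give the mean and SD of 3 libraries. In each panel the AclyM-KO libraries lie wholly above or wholly below the Ctrl libraries, by a small margin for *Slc25a13* (82.8 against 82.1 CPM) and *Slc25a22* (23.8 against 24.2 CPM).

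Of the 5 carriers for cofactors and pyrimidine nucleotides 0 passed, beside 24.9% of all genes, and the difference was not tested. The group includes the carriers for NAD (*Slc25a51*) and folate (*Slc25a32*), whose log2 fold changes were both -0.02. The pyrimidine nucleotide carriers, which supply precursors for mitochondrial DNA and RNA, had the highest and the lowest log2 fold changes of the group. *Slc25a33* measured 2.91, 2.86 and 4.02 CPM in Ctrl and 4.09, 4.76 and 4.93 CPM in AclyM-KO, all above Ctrl, with the highest log2 fold change of the family (0.49 ± 0.197, SE; adjusted p = 0.0791 by edgeR). *Slc25a36* measured 41.2, 37.8 and 37.9 CPM in Ctrl and 34.7, 33.4 and 35.6 CPM in AclyM-KO, all below Ctrl (-0.18, edgeR adjusted p = 0.0682, or 0.0418 without Ctrl replicate 2). The *Slc25a36* to *Slc25a33* ratio per kilobase was 4.43 ± 0.905 in Ctrl and 2.73 ± 0.288 in AclyM-KO (SD, n = 3), without overlap, at the smallest p an exact two-sided permutation test allows here (0.10, and 0.60 adjusted over 6 pairs). *Slc25a33* rested on 35 to 74 counts per library, its call was gained without Ctrl replicate 3 (log2 fold change 0.67, edgeR adjusted p = 0.0430), and 14.9% of its exonic bases lie under exons of *Gm13068* on the other strand.

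**Figure D5:**
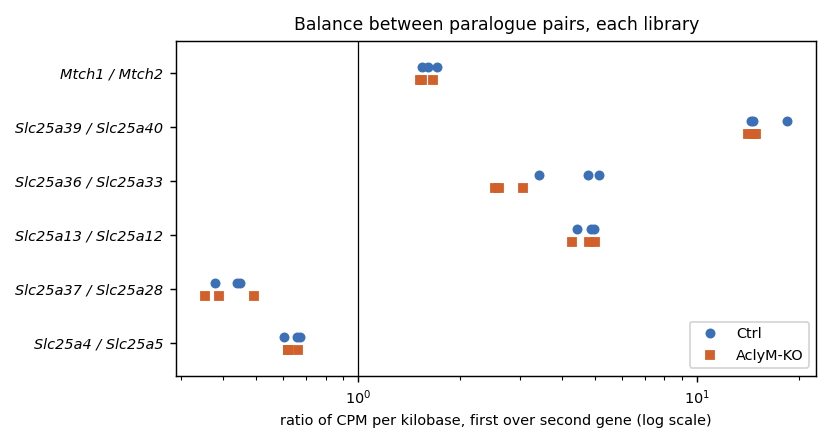
Ratio of CPM per kilobase between the genes of 6 paralogue pairs in every library, on a log scale; circles are Ctrl and squares AclyM-KO, and the vertical line marks a ratio of 1. The *Slc25a36* to *Slc25a33* ratio (2.73 in AclyM-KO, 4.43 in Ctrl) is the one pair of the 6 whose groups do not overlap.

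Of 2 carriers of dicarboxylates and keto acids, 2 of iron and 3 of the uncoupling protein branch 0 passed, too few genes to set against the 24.9% of all genes. *Slc25a11*, the oxoglutarate carrier gene and the malate step of the malate-aspartate shuttle, measured 89.6, 87.8 and 87.2 CPM in Ctrl and 87.1, 85.6 and 87.0 CPM in AclyM-KO. The groups did not overlap, yet the log2 fold change was -0.03 with a 95% interval of -0.13 to 0.07. *Slc25a10*, the dicarboxylate carrier gene, had -0.01 (95% interval -0.19 to 0.17). *Ucp2*, which is known to be abundant in myeloid cells, measured 656, 606 and 647 CPM in Ctrl and 642, 640 and 691 CPM in AclyM-KO, with overlap and a log2 fold change of 0.05 (95% interval -0.05 to 0.15). The gene lies on the plus strand of chromosome 7 (chr7:100493337-100502020), where exons of *Dnajb13* on the other strand cover 7.65% of its exonic bases. The other uncoupling protein relatives were low, *Slc25a30* with 0.25 (edgeR adjusted p = 0.0852, or 0.0356 without AclyM-KO replicate 3) and *Slc25a14* with -0.35 (edgeR adjusted p = 0.152, or 0.0204 with the sum of all transcript rows). The 5 rows of *Slc25a14* hold identical counts, so that sum counted the same reads 5 times and adds no evidence of a change. The mitoferrins, which bring iron into the matrix for haem and iron-sulfur clusters, were both below 0 without passing. *Slc25a37* (mitoferrin 1) measured 14.8 to 15.1 CPM in Ctrl and 12.6 to 14.6 CPM in AclyM-KO (edgeR adjusted p = 0.284), and *Slc25a28* (mitoferrin 2) had 13.1 ± 1.34 and 12.2 ± 1.14 CPM (SD, n = 3). Their ratio per kilobase, *Slc25a37* over *Slc25a28*, was 0.422 ± 0.0383 and 0.411 ± 0.0721 (SD, n = 3; exact two-sided permutation test, p = 0.90). Of the carriers given no role here, *Slc25a45* had 0.21 (edgeR adjusted p = 0.0698, or 0.0278 without a filter on low counts and 0.00732 without Ctrl replicate 1), *Slc25a53* 0.27, *Slc25a35* 0.10 and *Slc25a43* -0.30 on the log2 scale, and none passed in the main comparison. These estimates moved with single libraries left out, *Slc25a45* between 0.12 and 0.31, *Slc25a53* between 0.10 and 0.42 (both lowest without Ctrl replicate 3), and *Slc25a43* between -0.47 and -0.19 (without AclyM-KO replicates 2 and 3).

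The 11 named genes under the count minimum had few or no counts. *Slc25a41* was not detected at this depth, with 0 counts in all 6 libraries, and the highest count in any library was 25 for *Slc25a18*, 11 for *Slc25a29*, 9 for *Slc25a27* and *Slc25a47*, 4 for *Slc25a31*, 3 for *Slc25a48* and *Slc25a54*, 2 for *Slc25a2* and *Slc25a21* and 1 for *Slc25a34*. Just inside the minimum were *Slc25a42* and *Slc25a35*, whose lowest library had 27 counts each, and just outside was *Slc25a18* with 8. Of the 37 members 11 had more than 1 transcript row. In 7 of these the rows held identical counts, and no member's rows differed by over 0.3 in log2 fold change, the widest spread being that of *Slc25a53* (0.28 to 0.41).

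The comparators and the partner genes put these values in context. *Slc25a1* had 91.1 ± 1.68 CPM in Ctrl and 110 ± 0.962 CPM in AclyM-KO (SD, n = 3), a log2 fold change of 0.27 ± 0.0475 (SE; adjusted p = 7.34e-04 by edgeR) without overlap. *Slc25a20* measured 24.9, 23.5 and 23.8 CPM in Ctrl and 24.9, 20.3 and 23.2 CPM in AclyM-KO, with overlap (-0.08, edgeR adjusted p = 0.559). Of 53 tested genes in 4 lists of mitochondrial transport, shuttle, import and biogenesis genes, 8 rose and 2 fell (18.9%, against 24.9% of all genes). With library totals as the only scaling they were 7 and 4, a shift that is not particular to these lists. Over all genes the same scaling gave 1283 higher and 1710 lower, against 1485 and 1511 in the main fit.

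Among 7 enzymes that work beside the shuttle carriers, *Mdh2*, the mitochondrial malate dehydrogenase gene, rose from 137 ± 1.29 to 155 ± 4.27 CPM (SD, n = 3; log2 fold change 0.18, edgeR adjusted p = 0.0126), and *Me1*, the cytosolic malic enzyme gene, rose by 0.74 from a low level of 2.27 ± 0.0916 CPM (edgeR adjusted p = 0.0154). *Got1*, the cytosolic aspartate aminotransferase gene that uses the exported aspartate, fell from 81.7 ± 2.41 to 71.7 ± 3.54 CPM (-0.19, edgeR adjusted p = 0.0184). Its mitochondrial counterpart *Got2* had -0.19 without passing (edgeR adjusted p = 0.0555). With 2 higher and 1 lower, 42.9% of the list passed, against 24.9% of all genes (difference not tested), and its median log2 fold change was 0.04.

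Of 16 genes that import carrier proteins, *Tomm5*, a small subunit of the outer membrane entry pore, rose from 5.01 ± 0.600 to 8.02 ± 0.519 CPM (SD, n = 3; log2 fold change 0.67, edgeR adjusted p = 0.00395), while *Tomm7* (0.16), *Tomm22* (0.14) and *Timm13* (0.18) did not pass. That was 1 of 16 (6.25%), against 24.9% of all genes (difference not tested), and the median was 0.05. Among 18 other mitochondrial transporters, 4 rose and 1 fell (27.8%, near the 24.9% of all genes), with a median of 0.12. Those with the lowest edgeR adjusted p-values were the sideroflexin gene *Sfxn3* (0.27, 0.00225), the calcium uniporter regulator gene *Micu2* (0.28, 0.00483), the outer membrane channel gene *Vdac1* (-0.17, 0.0147) and the ABC transporter gene *Abcb10* (0.30, 0.0231), each given as log2 fold change and adjusted p. The other increase was that of *Sfxn5* (0.38), named after its value was seen. *Vdac1* went from 246 ± 3.58 to 219 ± 3.17 CPM (SD, n = 3). Of 12 tested genes for mitochondrial DNA and biogenesis, *Polg*, the mitochondrial DNA polymerase gene, rose (0.23, edgeR adjusted p = 0.0389), while *Pprc1* (0.18), *Ppargc1b* (-0.26) and *Tfb1m* (-0.31) did not pass, so that 1 of 12 (8.33%) passed. The median was -0.06, and *Ppargc1a* had at most 4 counts.

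Promoter windows were described for the 29 members with a RefSeq entry, in 39 windows of 250 bases before a start, and compared with all 32851 windows of the table. Those windows were not limited to genes with counts here, whereas each member had at least 10 counts in every library. The members' windows were richer in G and C, with a median of 58.8% against 52.4%, and had a median of 13 CpG dinucleotides against 6. Searched on both strands, the E-box CACGTG was in 15.4% of the members' windows and 6.02% of all windows, in *Slc25a13*, *Slc25a14*, *Slc25a15*, *Slc25a33* and *Slc25a36*. The ETS-type motif CCGGAAG was in 12.8% against 6.91%, in *Mtch2*, *Slc25a3*, *Slc25a4*, *Slc25a17* and *Slc25a38*, and the NRF1-type motif in 5.13% against 3.74%, in *Mtch2* and *Slc25a3*. The YY1-type motif AAGATGGC and the ERR-type motif TCAAGGTCA were in none of the members' windows and in 1.56% and 0.387% of all windows. A match is a description of the sequence only.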

How the data were processed

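RNA-seq libraries from IL-4-treated BMDMs (3 Ctrl, 3 AclyM-KO) were analysed. Per the methods and the submitters' processing notes, mRNA libraries that keep strand were sequenced, CASAVA 1.8.2 was used, and STAR 2.5.2b aligned the reads to mm10. The values the authors deposited are raw counts, with 1 row for each RefSeq transcript. The counting program is not given in the sources used here. Of 35745 rows, 35440 were paired with gene symbols through RefSeq's table for GRCm38.p6 and 188 through GENCODE M21, which also gave positions and lengths. The 117 rows without a gene (0.370% to 1.38% of the counts in a library) were left out. The design had assumed counts per gene. As transcripts of a gene share reads, the row with the highest total was kept for each of 24445 genes.

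AclyM-KO was compared with Ctrl by the quasi-likelihood test of edgeR 4.0.16 (R 4.3.3; filterByExpr, then TMM, with genotype as the model) and p-values were adjusted by the Benjamini-Hochberg method over 12023 genes. The common biological coefficient of variation was 0.0588. Genes were called at an adjusted p under 0.05, and also with a log2 fold change beyond 0.58. Depth was 12151975 to 15587283 counts per library, which limits the precision of carriers with few counts. Alternatives were DESeq2 1.42.0, limma-voom (limma 3.58.1), other scalings, filters, rows and fold limits, glmTreat, a replicate term and the removal of each library. Exact permutation tests used scipy 1.17.1. The procedure was tested on simulated data with changes larger than that of any carrier here. That test therefore does not cover changes of the size the carriers had. The members, gene lists and tests were chosen with earlier results of these data known. By the naming rule, members with an adjusted p under 0.05 are given in every library, with the 5 highest levels, 6 paralogue pairs, members under the minimum and up to 4 genes with the lowest adjusted p per related list; other members are given to account for the family. Naive BMDMs were not analysed here, and 1 member of the family, which is included in all counts and medians, and 1 marker gene are not reported here by name.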

Additional observations from a re-analysis of the deposited data

How the results depend on the processing

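None of the 37 carriers passed both limits in edgeR, DESeq2, limma-voom or any other scaling, filter or choice of transcript row tried. With a fold limit of 0.26, 2 carriers passed (*Slc25a22* and *Slc25a23*). The share of all genes past both of these limits was not counted, so no conclusion is drawn from the 2. By size alone, 35.1% of the carriers and 39.2% of all genes lay beyond 0.2. Leaving out 1 library gave 0 to 1 carriers (*Slc25a33*, without Ctrl replicate 3). With an adjusted p under 0.05 alone the 7 became 2 with DESeq2 and 0 to 6 with 1 library left out, lowest without AclyM-KO replicate 1. Of all genes, 667 passed both limits, 344 with at least 50 counts in all libraries, 118 with glmTreat and 588 to 667 with 1 library left out, and 2996 passed the adjusted p alone, 1974 to 3060 with 1 library left out. The 10 changes in the related lists became 6 with DESeq2 and 6 to 10 with 1 library left out. The median log2 fold change of the carriers ranged from -0.0013 to 0.055 with 1 library left out. The log2 fold change of *Acly* stayed between -1.31 and -1.24 in all fits. For these shifts the cause was not tested, beyond the fewer genes or samples of the alternative itself.

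With 1 library left out, these 8 carriers that did not pass changed sign: *Slc25a10* ranged from -0.065 to 0.085, *Slc25a17* from -0.059 to 0.035, *Slc25a24* from -0.022 to 0.055, *Slc25a32* from -0.059 to 0.026, *Slc25a35* from -0.016 to 0.27, *Slc25a38* from -0.13 to 0.20, *Slc25a39* from -0.057 to 0.032 and *Slc25a51* from -0.057 to 0.0047. Other carriers that did not pass and moved by over 1.5 times were *Mtch1* (0.083 to 0.14), *Slc25a4* (0.065 to 0.12), *Slc25a5* (0.0515 to 0.19), *Slc25a11* (-0.041 to -0.018), *Slc25a16* (0.053 to 0.14), *Slc25a25* (0.089 to 0.25), *Slc25a28* (-0.17 to -0.024), *Slc25a40* (0.028 to 0.15), *Slc25a42* (-0.43 to -0.21), *Slc25a44* (-0.13 to -0.035) and *Ucp2* (0.0090 to 0.068), beside those given above. No carrier that passed changed sign under any alternative, but single calls were lost 24 times and kept 18 times with 1 library left out, and lost 18 times and kept 59 times under the other settings, glmTreat (which tests against the fold limit) included. Calls were also gained with 1 library left out, 1 each for *Slc25a5* and *Slc25a45* (without Ctrl replicate 1, edgeR adjusted p = 0.0482 and 0.00732), *Slc25a36* (without Ctrl replicate 2, 0.0418), *Slc25a33* (without Ctrl replicate 3, 0.0430) and *Slc25a30* (without AclyM-KO replicate 3, 0.0356). The sum of all rows gave 5 carriers (13.5%), beside 22.8% of all genes. *Slc25a14* was added (edgeR adjusted p = 0.0204), but its 5 rows hold identical counts, so the sum counted the same reads 5 times. *Slc25a12*, *Slc25a23* and *Slc25a46* were lost, although each has 1 row and the log2 fold changes stayed at -0.22, -0.44 and 0.16. *Slc25a45* passed without a filter on low counts (edgeR adjusted p = 0.0278).

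Nothing in the labels pairs libraries of the same number, and deviations of same-numbered libraries correlated at -0.065, 0.0498 and -0.0314. With the replicate number as a block, 6 carriers passed the adjusted p (4 higher, 2 lower; *Slc25a23* at 0.0501) and 2644 of all genes, 652 of them with the fold limit.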
